A study of Caenorhabditis elegans with 48 samples.

Results

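lea-1 encodes a late embryogenesis abundant (LEA) protein of *Caenorhabditis elegans*, and its RNA was followed over 1 day in adult worms with and without K-NAA, the auxin used to deplete NHR-23. It is 1 gene of the 19885 in the expression tables, found by its symbol, and it was selected on its TPM values in the mock libraries, for a strong change over the day in the mock condition. The mock time course is therefore given as a description with no test. Tests are given for the K-NAA libraries, for the mean level of the day and for the difference between plates.

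LEA proteins are disordered, very hydrophilic proteins that were first described in drying plant seeds. They are thought to protect other proteins and membranes when water is lost. In C. elegans, worms with reduced lea-1 survive drying, osmotic stress and heat less well, and the gene is best known from the desiccation-tolerant dauer larva. LEA proteins share this role with trehalose, a sugar that worms accumulate before drying, and with small heat shock proteins, which keep unfolded proteins soluble.

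The study asked whether NHR-23, a nuclear receptor of the ROR family that drives larval molting, is also needed for the daily rhythm of transcripts in adults. RNA of whole adult worms was sequenced in 24 K-NAA libraries and 24 mock libraries, 2 plates for each of 12 time points (CT1 to CT23, every 2 h) in each condition. CT is circadian time, the hours counted through the sampled day at a constant 15 °C after cycles of 12 h at 25 °C and 12 h at 15 °C.

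All 48 libraries came from the strain JDW259. It carries the insertion wrdSi55 on chromosome I, in which the promoter of eft-3, active across somatic tissues, drives the plant F-box protein TIR1, joined through F2A to the blue fluorophore mTagBFP2, with the 3'UTR of tbb-2. Its nhr-23 allele kry61 adds an auxin-inducible degron (AID*), a TEV site and a 3xFLAG tag to NHR-23. Mock worms therefore held the same transgene and the same degron allele, and no library of K-NAA-treated worms without the degron was analysed here. Worms of both conditions were moved at the L4 stage to plates with 10 µM FUdR, which blocks offspring. Whether the later plates with K-NAA also held FUdR is not stated in the study's methods. Sampling ran over 1 day from 97 h after L1 release. K-NAA was given 12 h before sampling began, at 0.4 mM by the sample labels and at 400 mM by the study's methods.

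Values are TPM, a level corrected for transcript length that sums to the same total in every library and keeps no sequencing depth. Error is thus read from the spread between libraries, and the 2 plates of a time point were described as biologically independent. In the daily curve and the test of mean level below, this error also holds differences between time points that the fit leaves over. Between 15239 and 16095 genes were above 0 in the K-NAA libraries and between 15165 and 15932 in the mock libraries. nhr-23 RNA had 27.4 to 34.5 TPM in K-NAA and 26.5 to 40.5 TPM in mock. The degron acts on the protein, so this RNA does not check the depletion. No 2 libraries held identical values.

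lea-1 (WBGene00002263) lies on chromosome V at 10011923 to 10028168 of WBcel235, on the plus strand, and spans 16246 bases (Ensembl 115). The annotation gives 17 transcripts with 5 distinct starts, 4 to 12 exons and 1494 to 4455 exonic bases, so the longest is 2.98 times the shortest. The tables give 1 TPM value for the gene in each library, so the starts cannot be told apart in these data. The last 19 bases overlap the 3' end of acl-2, a predicted acyltransferase gene on the other strand.

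**Figure D1:**
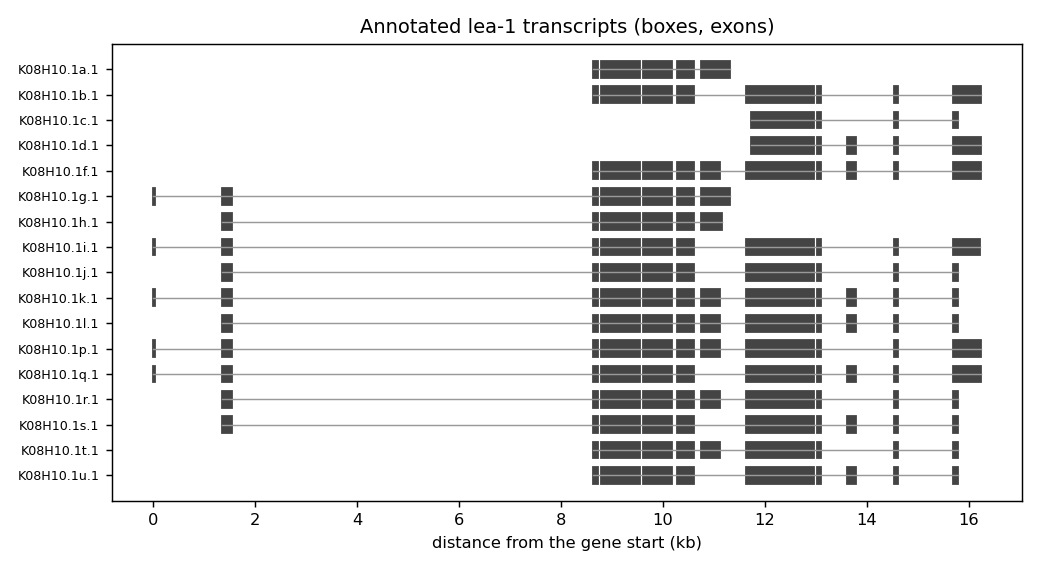
Exons (boxes) of the 17 annotated lea-1 transcripts, 1 per line, by distance from the gene start in kb. The starts fall at 5 positions, and most transcripts share the exons of the second part of the gene.

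In K-NAA, lea-1 was a well-expressed gene throughout the day, with a weak excess in the second part of the day and plates that often disagreed. Its level was 212 ± 50.2 TPM in K-NAA and 212 ± 72.8 TPM in mock (SD over 24 libraries each), and 635 of the 13813 genes tested (4.60%) had a higher mean. The K-NAA libraries ran from 129 to 348 TPM, and the mock libraries ran from 113 to 346 TPM. The 2 conditions thus had the same mean and nearly the same extremes, but placed them at different hours.

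The K-NAA plates of the first 6 time points gave these values, replicate 1 before replicate 2. At CT1 lea-1 had 215 and 129 TPM, at CT3 155 and 162 TPM, and at CT5 219 and 199 TPM. At CT7 it had 171 and 159 TPM, at CT9 236 and 188 TPM, and at CT11 223 and 177 TPM. No K-NAA library of these hours exceeded 236 TPM, and their mean was 186 ± 32.8 TPM (n = 12).

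In the second part of the K-NAA day, lea-1 had 227 and 180.3 TPM at CT13, 348 and 249 TPM at CT15, and 211 and 218 TPM at CT17. It had 238 and 189.6 TPM at CT19, 235 and 244 TPM at CT21, and 329.8 and 191 TPM at CT23. The mean was 238 ± 52.1 TPM (n = 12), with an overlap with the earlier hours. The 2 highest K-NAA libraries were replicate 1 of CT15 and replicate 1 of CT23, and the second plate of CT23 was among the lower ones.

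The mock plates were low and mostly close together in the first part of the day. At CT1 lea-1 had 150.1 and 157 TPM, at CT3 206 and 138 TPM, and at CT5 141 and 139 TPM. At CT7 it had 141 and 149 TPM, at CT9 151 and 155 TPM, and at CT11 113 and 173 TPM. The mean of these hours was 151 ± 22.3 TPM (n = 12), and only the first plate of CT3 lay above 173 TPM.

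From CT13 on the mock values were higher. lea-1 had 249 and 195 TPM at CT13, 200.4 and 209.8 TPM at CT15, and 291 and 279 TPM at CT17. It had 326 and 346 TPM at CT19, 279 and 309 TPM at CT21, and 285 and 308 TPM at CT23. The 8 mock libraries of CT17 to CT23 (303 ± 24 TPM) lay above every other mock library, of which the highest had 249 TPM. In K-NAA the same 8 libraries held 232 ± 44.6 TPM and were spread among the rest.

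**Figure D2:**
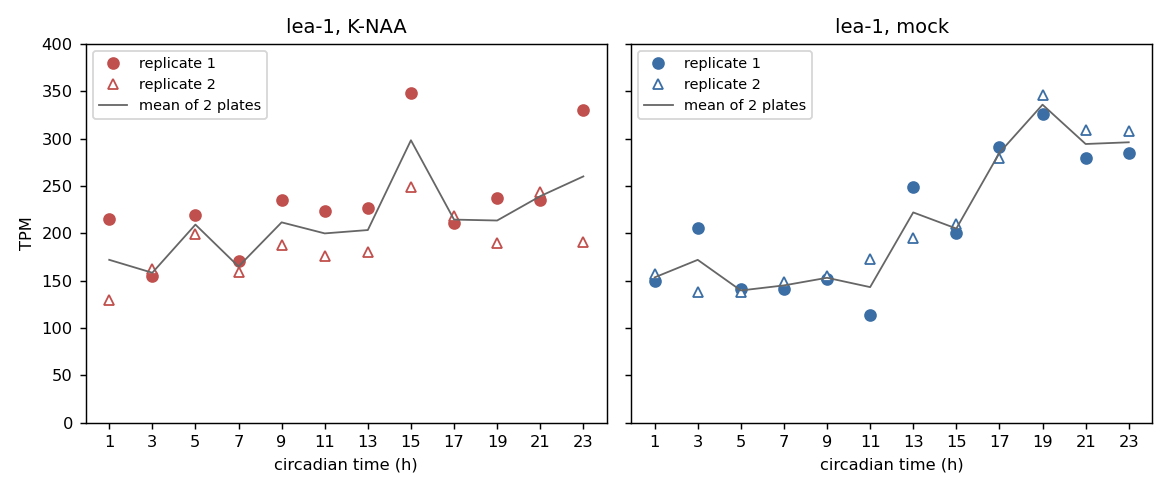
lea-1 TPM against circadian time in K-NAA (left) and mock (right), with replicate 1 as filled circles, replicate 2 as open triangles and a line through the means of the 2 plates. In mock the plates of CT17 to CT23 sit at 279 to 346 TPM, above all others, while in K-NAA they sit at 189.6 to 329.8 TPM among the others.

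In order of level, the K-NAA time points were CT3, CT7, CT1, CT11, CT13, CT5, CT9, CT19, CT17, CT21, CT23 and CT15, and 10 of the 11 neighbours in this order had overlapping plates. The mock order was CT5, CT11, CT7, CT9, CT1, CT3, CT15, CT13, CT17, CT21, CT23 and CT19. There 8 of 11 neighbours overlapped, and the breaks were between CT7 and CT9, between CT13 and CT17 and between CT23 and CT19. The highest time point mean was 1.88 times the lowest in K-NAA and 2.4 times the lowest in mock. The 2 plates of a time point differed by a median of 1.25-fold in K-NAA, with 1.73-fold at CT23 as the widest, and by a median of 1.06-fold in mock, with 1.53-fold at CT11.

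A 24 h cosine summarised the time course in each condition on the log2(TPM + 0.5) scale, which is used for all differences below. Its range is the fitted peak minus the fitted trough. In K-NAA the range was 0.45 ± 0.16 (SE), with the peak at CT17.0. limma's moderated F test gave an adjusted p of 0.620 over all 13813 genes, so the fit did not pass the threshold of 0.30 that the study used, which 0.746% of genes passed in K-NAA. By size alone, 1007 genes (7.29%) had a wider fitted range in K-NAA, where the median over all genes was 0.13.

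In mock the fitted range was 1.2, a 2.29-fold difference between peak and trough, with the peak at CT19.1. This is the pattern lea-1 was picked for, and 11.7% of genes passed the same threshold in mock. Only 78 genes (0.565%) had a wider fitted range there, against a median of 0.16 over all genes. The sampled day covers 1 cycle, so a daily rhythm and a drift with age cannot be told apart. With a linear drift in the fit, the range was 0.13 in K-NAA and 0.75 in mock.

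Shapes other than the cosine described lea-1 about as well. In K-NAA a straight line took up 34.1% of the variance, a step between CT11 and CT13 took up 30.2% and the cosine 25.4%. In mock the line took up 69.4%, the step 76.5% and the cosine 77.3%. The 12 time points together took up 61.2% of the variance in K-NAA and 92.1% in mock. The courses of the 2 replicate numbers had an r of 0.54 over 12 time points in K-NAA and of 0.84 in mock.

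The last 3 time points (CT19 to CT23) were also set against the first 3 (CT1 to CT5). In K-NAA the means were 238 ± 51.1 TPM late and 180 ± 36.6 TPM early (n = 6 each). The difference was 0.40 ± 0.14 (SE; 95% interval 0.096 to 0.71), or 1.32-fold, and it was 0.44 in replicate 1 and 0.36 in replicate 2. limma gave an adjusted p of 0.238, so it did not pass the threshold of 0.05, which 0.528% of genes passed in this direction and 0.434% in the other. In mock the means were 309 ± 24.9 TPM late and 155 ± 25.9 TPM early, a difference of 1.0 or 2.0-fold, given without a test.

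The mean level of the day did not separate the conditions. K-NAA minus mock was 0.045 ± 0.084 (SE; 95% interval -0.12 to 0.21), or 1.03-fold, with an adjusted p of 0.733 by limma. An exact two-sided sign-flip permutation test of the 12 time point differences gave p = 0.705. The mock course that chose lea-1 enters the error of both tests and widens it, so a small difference in level could be missed. In the same fit 9.48% of genes were higher and 19.8% were lower in K-NAA, and the median over all genes was -0.020. The sign for lea-1 hung on the replicate number, with 0.19 from the replicate 1 plates alone (adjusted p = 0.329) and -0.10 from the replicate 2 plates alone (adjusted p = 0.510).

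Behind this mean lay differences of both signs, which are described without a test since the mock course chose the gene. From CT7 to CT11, lea-1 had 192 ± 30.5 TPM in K-NAA and 147 ± 19.6 TPM in mock (n = 6 each), a difference of 0.38. From CT13 to CT17 it had 239 ± 58.0 TPM in K-NAA and 237 ± 41.6 TPM in mock. From CT19 to CT23 it had 238 ± 51.1 TPM in K-NAA and 309 ± 24.9 TPM in mock, a difference of -0.40 or 0.758-fold. Both K-NAA plates lay above both mock plates at 5 time points (CT5, CT7, CT9, CT11 and CT15). They lay below both mock plates at 3 (CT17, CT19 and CT21) and overlapped them at 4. With so few plates per time point, the conditions can separate by chance. These counts were not set against those of other genes, so how unusual they are cannot be judged.

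**Figure D3:**
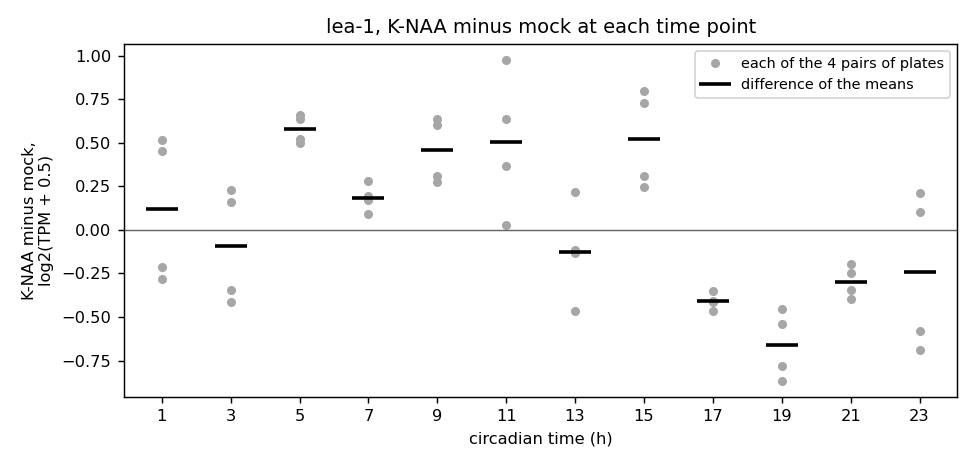
K-NAA minus mock for lea-1 on the log2(TPM + 0.5) scale at each circadian time, with the 4 plate-by-plate differences as grey points and the difference of the means as a bar. The means run from 0.58 at CT5 to -0.66 at CT19, and the 4 points lie on both sides of 0 at 4 time points.

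The size of these differences varied with the replicate number. For CT19 to CT23 the difference was -0.16 in replicate 1 and -0.63 in replicate 2, and for CT7 to CT11 it was 0.63 in replicate 1 and 0.13 in replicate 2. The sign was the same in both replicate numbers in these windows, but not for CT13 to CT17, where the difference was 0.064 in replicate 1 and -0.074 in replicate 2.

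The plates of K-NAA differed in level by their replicate number. The replicate 2 plates averaged 190.4 ± 34.3 TPM in K-NAA and the replicate 1 plates 234 ± 55.4 TPM (n = 12 each), and replicate 2 was the lower at 9 of 12 time points. The difference within time points was -0.28, with p = 0.00586 by an exact two-sided sign-flip permutation test (0.0117 after adjustment over the same test in both conditions). The smallest p this test can give is 0.000488. In mock replicate 2 minus replicate 1 was 0.016, given without its test because the gene was selected on these libraries.

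Adjusted over all genes with limma, the K-NAA difference of lea-1 had an adjusted p of 0.0753 and did not pass 0.05. No gene passed there (0% of 13813), though 2748 genes had an unadjusted p under 0.05. In mock 16.9% of genes passed. A gene picked for a clear course in mock tends to be one whose mock plates lie close together, so the spread of its plates in mock is not independent of the choice.

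Genes with a course like that of lea-1 were ranked by Pearson's r over the 24 libraries of a condition, among the 11209 genes that averaged 1 TPM or more. The points share their plates and the scaling to a common total, and r is a description. Over the K-NAA libraries the highest were dpy-14 (0.88), which encodes a cuticle collagen, mek-1 (0.88), a MAP kinase kinase of the stress response, zig-4 (0.88), T22B7.7 and C30G12.2 (0.86 each), and the collagen gene col-121 (0.87). gyg-2, gln-6, C09F9.2, noah-2, dhs-26 and ugt-66 followed at 0.85 to 0.86.

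Over the mock libraries the highest were gln-6 (0.90), a glutamine synthetase gene, gyg-2 (0.90), named for glycogenin, C36A4.4 (0.89), gpd-1 (0.89), K08F4.3 (0.86), and ctl-3 (0.86), a catalase gene. his-61, dsb-1, rab-11.1, gpd-4, pygl-1 and dlc-5 followed at 0.82 to 0.85. Here pygl-1 is glycogen phosphorylase, gpd-1 and gpd-4 encode the glycolytic enzyme GAPDH, and his-61 is a histone gene. gpd-1 and gpd-4, like histone and catalase genes, have close copies, so reads may have been split among them. gln-6 and gyg-2 were in the top 12 of both conditions.

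An r over 0.7 was reached by 247 genes in K-NAA and by 106 in mock, and 28 genes did so in both, which is 11.3% of the K-NAA genes and 26.4% of the mock genes. All of the 12 genes highest in mock also had a positive r over the K-NAA libraries, with a median of 0.69 against 0.15 over all ranked genes there. his-61 was the lowest at 0.16, close to that median. The shared variation included the plates. In K-NAA, gyg-2 differed between the plates of a time point in step with lea-1 (r = 0.76 over 12 plate differences), as did gln-6 (r = 0.74).

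The companions of lea-1 in mock changed less than lea-1 did, with fitted ranges of 0.20 to 0.74 in mock, against 1.2 for lea-1. Since lea-1 was chosen for its strong change in these libraries, their smaller ranges largely follow from that choice. In K-NAA 10 of the 12 had a higher mean late than early, and none passed the late-minus-early test (limma, 2 at an unadjusted p under 0.05). Of all genes 0.528% passed that test as higher late, so none of 12 is near that share. By the 24 h fit in K-NAA, K08F4.3 (adjusted p = 0.257) and C36A4.4 (0.298) passed 0.30, where 0.746% of genes did. All 12 were lower in K-NAA than in mock in the mean level of the day, by 0.13 to 0.69, where 19.8% of genes were. These comparisons share the mock libraries in which the 12 genes were picked. lea-1 did not move with them in mean level.

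At the opposite end in mock stood the cuticle collagen genes col-124 (r = -0.85) and col-19 (-0.85), grd-3 (-0.84), a hedgehog-related gene, dgat-2 (-0.82), amt-1 (-0.82) and sri-40 (-0.81). dgat-2 is named for an enzyme of fat storage, and amt-1 for an ammonium transporter. All 6 had a negative r over the K-NAA libraries too, with col-19 at -0.89. In K-NAA 4 of these 6 passed the 24 h threshold of 0.30, where 0.746% of genes did, col-124 with an adjusted p of 0.0846 and a range of 0.52. There 3 of the 6 were lower late than early at an adjusted p under 0.05, where 0.434% of genes were.

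Tissue markers were read beside lea-1, since fewer cells of a tissue and less RNA per cell cannot be told apart in whole worms. The summed level of 10 hypodermis markers, most of it col-19, was 575 to 728 TPM early and 452 to 607 TPM late in K-NAA, and 526 to 627 TPM early and 457 to 533 TPM late in mock. Its r with lea-1 was -0.89 in K-NAA and -0.84 in mock over 24 libraries. This sum follows col-19, whose own r was -0.89 in K-NAA and -0.85 in mock, while the median hypodermis marker tested was higher late than early, by 0.046 in K-NAA and 0.087 in mock. Intestine markers summed to 12652 to 15546 TPM in K-NAA (r = -0.54) and 8834 to 13280 TPM in mock (r = -0.51), and body wall muscle markers had an r of -0.70 in K-NAA and -0.54 in mock. Pharynx markers had an r of -0.43 in K-NAA and -0.53 in mock, and neuron markers of -0.19 in K-NAA and 0.17 in mock. For germline and oocyte markers it was -0.19 in K-NAA and -0.18 in mock.

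Embryo markers summed to 4.79 to 12.7 TPM in K-NAA and 5.12 to 9.33 TPM in mock, so the RNA of these markers was scarce in both. Sperm markers summed to 2.36 to 33.3 TPM in K-NAA and 2.07 to 45.5 TPM in mock. No marker in the table was at 0 in every library. The 24 h threshold was passed by 0.746% of all genes in K-NAA and 11.7% in mock. Among hypodermis markers 1 of 7 tested passed it in K-NAA and 4 of 7 did in mock. Intestine markers passed it in 3 of 10 cases in K-NAA and 4 of 10 in mock, and body wall muscle markers in 1 of 10 in K-NAA and 3 of 10 in mock. In mock 1 neuron marker and 1 embryo marker also passed it. The part of tissue shares in the lea-1 course was not tested.

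The 71 tested genes of 8 lists on drying and related stresses showed changes of both signs in mean level, 11 higher and 17 lower in K-NAA, with a median of -0.011 against -0.020 for all genes, of which 9.48% were higher and 19.8% lower. The balance of the calls hung on the scaling, with 14 higher and 14 lower after median ratio rescaling and 14 higher and 12 lower after quantile normalization. These lists were written with earlier results of the same data known. dur-1, the other LEA-type gene listed, averaged 6.07 ± 1.24 TPM in K-NAA and 5.60 ± 1.06 TPM in mock (difference 0.10, adjusted p = 0.348), so like lea-1 it did not pass. Its r with lea-1 was -0.14 in K-NAA and -0.0062 in mock.

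Among 8 genes of trehalose metabolism, tps-1, a trehalose-phosphate synthase, was higher in K-NAA (difference 0.16, adjusted p = 0.0348, higher at 12 of 12 time points) and tre-1, a trehalase, was lower (-0.11, adjusted p = 0.0235). Both differences are small. The call of tps-1 was lost without the replicate 1 plates and that of tre-1 without the replicate 2 plates.

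The largest changes among the lists were in small heat shock genes. hsp-16.11 had 16.8 ± 3.53 TPM in K-NAA and 135 ± 65.1 TPM in mock (SD, n = 24 each), a difference of -2.85 ± 0.15 (SE). hsp-16.2, hsp-16.41 and hsp-16.48 differed by -3.27, -3.71 and -2.47, and each of the 4 was lower at 12 of 12 time points. They belong to a family with some near-identical copies whose reads can be split, so the share of each copy is uncertain. hsp-43 (0.28) and hsp-25 (0.10) were higher in K-NAA. sip-1, a small heat shock gene of the germline and embryo, had 2848 ± 335 TPM in K-NAA and 2876 ± 347 TPM in mock and did not pass, while its r with lea-1 was 0.69 in each condition. In mock the r was -0.62 to -0.51 for the 4 hsp-16 genes, hsp-25 and hsp-12.2, and -0.18 to 0.41 for the rest of this list. In K-NAA it was -0.65 for hsp-12.2, -0.26 for hsp-25 and -0.051 to 0.37 for the 4 hsp-16 genes.

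Of the 11 tested osmotic stress genes, 5 were higher in K-NAA and 1 was lower, where 9.48% of genes were higher and 19.8% lower. gpdh-1, which makes glycerol, was higher by 0.45, and hmit-1.1, a myo-inositol transporter, had 8.06 ± 2.25 TPM in K-NAA and 4.27 ± 1.17 TPM in mock (difference 0.83). nlp-29, an antimicrobial peptide gene of the epidermis that also responds to osmotic stress, was higher by 0.52, ptr-23 by 0.19 and osm-7 by 0.13. The call of osm-7 was lost with no filter on low values (adjusted p = 0.0658). gck-3, a kinase of the osmotic response, was lower (-0.25).

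Among the antioxidant genes the tandem catalase genes moved in opposite directions. ctl-1 had 90.3 ± 15.9 TPM in K-NAA and 40.7 ± 6.53 TPM in mock (difference 1.14), and ctl-2 had 87.4 ± 17.6 TPM in K-NAA and 38.4 ± 5.11 TPM in mock (1.16). ctl-3 had 25 ± 4.80 TPM in K-NAA and 32.4 ± 8.68 TPM in mock (-0.34). The other 8 genes of this list, superoxide dismutases and peroxiredoxins, did not pass.

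In the list of glycogen and glyoxylate genes, gsy-1, glycogen synthase, had 70.9 ± 9.04 TPM in K-NAA and 95.6 ± 11 TPM in mock (-0.43). pygl-1 (-0.20), agl-1 (-0.12) and gpi-1 (-0.075) were lower too, and pck-1, which opens gluconeogenesis, was higher (0.50). icl-1, the glyoxylate enzyme that worms use to turn fat into sugar, did not pass in level, and its r with lea-1 was 0.85 in K-NAA and 0.64 in mock. That was the highest r of this list in K-NAA, where gyg-1 had the lowest (-0.38). In mock the list ran from -0.61 for gyg-1 to 0.82 for pygl-1.

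Among 15 regulators 6 were lower and none was higher in K-NAA by limma, where 19.8% of genes were lower and 9.48% higher. They were the insulin receptor gene daf-2 (-0.17), its FOXO target daf-16 (-0.12), the zinc finger factor pqm-1 (-0.16), the heat shock factor hsf-1 (-0.14), the AMP kinase subunit aak-1 (-0.11) and the CREB gene crh-1 (-0.26). With quantile normalization daf-16 (adjusted p = 0.0578), pqm-1 (0.170) and aak-1 (0.181) did not pass, and with median ratio rescaling pqm-1 (0.112) and aak-1 (0.101) did not. The other list, DJ-1 and glyoxalase, had none of 3 genes called. Without the replicate 2 plates 9 stress genes were lower in place of 17. The calls of daf-2, daf-16, pqm-1, hsf-1, aak-1, pygl-1, agl-1, gpi-1, gpdh-1, osm-7 and hsp-25 were lost there, and those of ptr-23, gpi-1 and pqm-1 without the replicate 1 plates.

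By the hour, none of the 71 stress genes passed the 24 h fit in K-NAA (8 at an unadjusted p under 0.05) and none passed late minus early there (7 at an unadjusted p under 0.05, limma). Of all genes 0.746% passed the 24 h fit in K-NAA, and 0.528% passed as higher late and 0.434% as lower late. None of 71 is near those shares. In mock 16 of 71 passed the 24 h threshold of 0.30, where 11.7% of genes did, among them 5 of the 9 glycogen and glyoxylate genes and 6 of the 13 small heat shock genes. These did not share 1 phase. The fitted mock peaks of hsp-16.11, hsp-16.2, hsp-16.41, hsp-16.48 and hsp-25 were at CT5.0 to CT6.2, and that of sip-1 was at CT19.1. gyg-1 peaked at CT6.3 in mock, and gsy-1, pygl-1, pck-2 and icl-1 at CT19.2 to CT20.2. The median fitted range of the stress genes was 0.12 in K-NAA, where that of lea-1 was 0.45, and 0.17 in mock. The 16 mock calls fell to 0 with either replicate number left out.

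**Figure D4:**
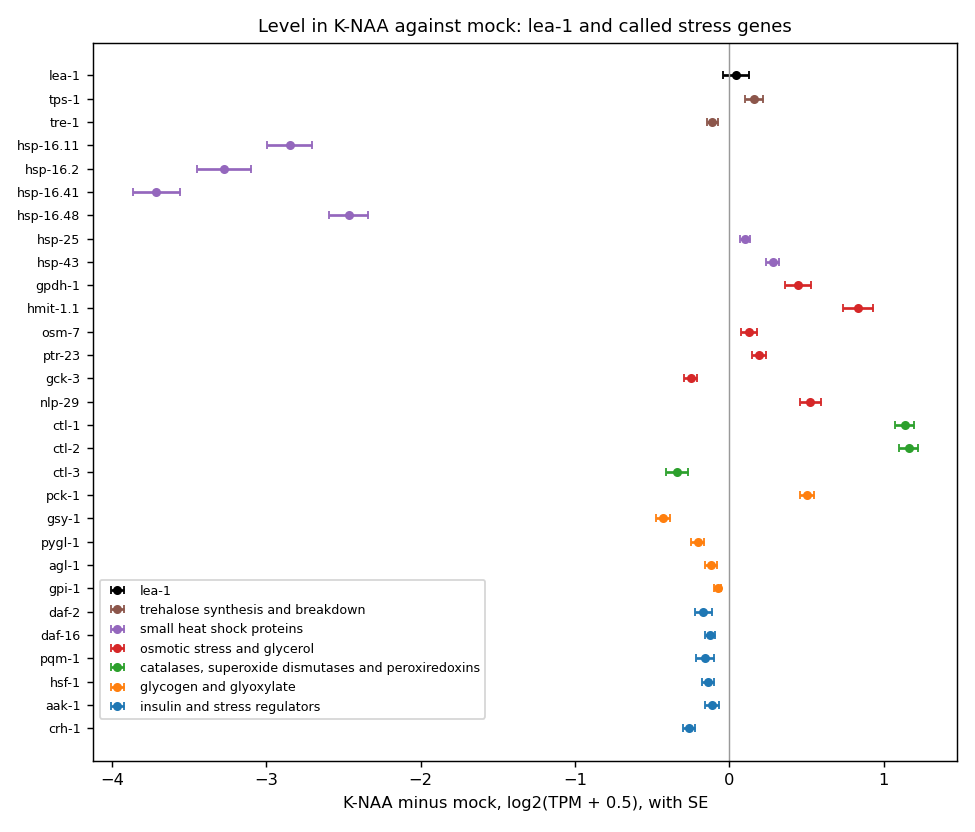
K-NAA minus mock on the log2(TPM + 0.5) scale, with its SE, for lea-1 (top, black) and the 28 genes of the stress lists that passed an adjusted p of 0.05, coloured by list. lea-1 lies at 0.045, while 4 hsp-16 genes lie below -2.4 and ctl-1 and ctl-2 above 1.1.

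The genes next to lea-1 on chromosome V did not show its course. uda-1, the nearest gene before it, had 76.8 ± 4.08 TPM in K-NAA and 85.5 ± 5.37 TPM in mock and was lower in K-NAA (-0.15, adjusted p = 6.85e-06), with fitted ranges of 0.039 in K-NAA and 0.080 in mock. acl-2, which overlaps the last bases of lea-1, had 52.2 ± 6.84 TPM in K-NAA and 54.3 ± 6.57 TPM in mock (adjusted p = 0.411), and its r with lea-1 was 0.13 in K-NAA and 0.11 in mock. trpp-6 (-0.097) and yif-1 (-0.080) were also lower in K-NAA, and rde-1, F57A8.1 and K08H10.10 did not pass. K08H10.6, T06E8.2 and T06E8.8 were at or near 0 and were not tested. None of the 7 tested neighbours passed the 24 h threshold in K-NAA or in mock. Of all genes 0.746% passed it in K-NAA and 11.7% in mock, so none of 7 is near those shares.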

How the data were processed

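TPM values per gene and library were deposited by the authors, who ran Salmon (0.13.1) on the WS284 transcripts of WormBase. The step from transcripts to genes is not described in these sources. The deposited tables also hold the period, lag, amplitude, p-value and q-value columns of BioCycle, which were not used.

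TPM was analysed as log2(TPM + 0.5) on 13813 genes, those averaging 0.25 TPM or more over all libraries, with limma 3.58.1 in R 4.3.3, its mean-variance trend and Benjamini-Hochberg adjustment over all of them. The fits were a 24 h cosine in K-NAA, CT19 to CT23 minus CT1 to CT5, and K-NAA minus mock with the time point as a factor. Fits were tested on simulated data. The number of 2 plates per time point limits the precision.

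lea-1, the gene lists and the tests were chosen with earlier results of these data known. Genes named are the 12 highest and 6 lowest in r with lea-1 in mock, the 12 highest in K-NAA, stress list members that passed a test and up to 4 that did not, and up to 5 neighbours on either side. Alternatives covered pseudocounts, filters, scaling, periods, a drift, and left-out replicates and plates. The fits without the mean-variance trend and the limma test of plates were added after seeing the data.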

Additional observations from a re-analysis of the deposited data

How the results depend on the processing

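lea-1 did not pass in K-NAA under any alternative that gave a test: the 24 h range was 0.13 to 0.89 over 51 alternatives (adjusted p 0.307 to 1, the highest value being the range of 12 separate time point means), late minus early was 0.27 to 0.53 over 47 (adjusted p 0.0617 to 0.534, with no test for the values without replicate 1, 0.36, and without replicate 2, 0.44), and the level was -0.10 to 0.19 over 73 (adjusted p 0.329 to 0.992). The level turned to -0.10 without replicate 1 and -0.0036 without CT5. The mock 24 h range was 0.75 with a linear drift and 1.02 to 1.26 in the other 45 alternatives.

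Replicate 2 minus replicate 1 in mock turned to -0.074 with median ratio rescaling and, with 1 time point left out, ran from -0.038 (CT11) to 0.069 (CT3). In K-NAA it ran from -0.32 to -0.24, and its limma test over all genes was the 1 of 17 alternatives that did not pass (-0.28, adjusted p = 0.0753).

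Replicate numbers do not pair the conditions: their plate differences correlated by -0.066 to 0.18 across genes, over 0.1 at 1 of 12 time points. With the replicate number as a block, the lea-1 level was 0.045 (adjusted p = 0.724), late minus early 0.40 (0.0739) and the K-NAA 24 h range 0.45 (0.435). Of the stress genes, K-NAA 24 h calls were 2 with the block and 2 with a 28 h period in place of 0. Mock calls were 4 with a 20 h period, 0 with a drift and 0 without replicate 1 or without replicate 2, in place of 16. Lower levels were 9 without replicate 2. There tre-1 (0.014, against -0.23 without replicate 1), agl-1 (0.013 and -0.25), hsf-1 (0.0015 and -0.27) and aak-1 (0.0086 and -0.23) turned positive and did not pass.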
